A study of Mus musculus with 14 samples.

Results

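Mouse oocytes with Cre were compared with oocytes without it after both had received a miR-15a mimic. The comparison rested on 6 of the 14 arrays of the study, 3 in each group. Its members were all probes with a detection p under 0.05 on at least 3 of these 6 arrays. They numbered 13563 of the 25697 probes on the array and named 9034 genes, and 849 of them had no single gene symbol.

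RNA was measured on one-colour Illumina bead arrays in oocytes at the germinal vesicle stage, the stage before meiosis resumes. Every oocyte, control or not, carried in the Rosa26 locus a human AGO2 gene with myc and GFP tags, silenced by a stop cassette between lox sites. In the Cre-positive group the promoter of Zp3, a zona pellucida gene of growing oocytes, drove Cre recombinase, which removes that cassette. The Cre-negative group lacked Cre, so Cre and the AGO2 it switches on came together in all comparisons and their effects cannot be told apart. Both groups were from females given 5 units of PMSG (a gonadotropin) 48 h before injection, were injected with 2 µM miR-15a mimic and were kept overnight in 2 µM milrinone, an inhibitor of the phosphodiesterase whose activity lets meiosis resume. Strain and age of the mice are not given. Nothing in the labels ties a sample to an animal or to a pool of animals, so p-values measure only the spread between these samples, which may be technical. A set without mimic (4 Cre-negative and 4 Cre-positive arrays) was deposited in its own table and served for comparison.

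MicroRNAs act bound to an Argonaute protein. Bases 2 to 8 of the microRNA, the seed, pair with sites in messenger RNAs, which are then translated less and degraded faster. Argonaute 2 can also slice transcripts that pair along the whole small RNA, as endogenous siRNAs do in mouse oocytes. In fully grown mouse oocytes microRNAs repress their targets only weakly, although the oocytes contain Dicer and microRNAs.

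The sequence of the injected duplex is not in the sources used here. The mature mouse miR-15a and the other microRNAs with its seed are shown because the seed decides which targets a mimic of this name would share with them. They were read from RefSeq on GRCm38.p6, 5′ to 3′, with the seed in capitals. Of 1738 mature entries 11 had this seed, giving 10 distinct sequences.
miR-15a-5p: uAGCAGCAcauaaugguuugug
miR-15b-5p: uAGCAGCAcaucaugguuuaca
miR-16-5p: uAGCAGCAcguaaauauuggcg
miR-195a-5p: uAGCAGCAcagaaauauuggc
miR-322-5p: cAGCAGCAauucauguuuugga
miR-497a-5p: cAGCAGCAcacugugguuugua
miR-15a-5p lies at chr14:61632075-61632096 on the minus strand, next to a copy of miR-16-5p at chr14:61631936-61631957. Counted position by position from the 5′ end, miR-15b-5p shared 18 of its 22 bases with miR-15a-5p, miR-497a-5p 17, miR-16-5p 16, and miR-195a-5p and miR-322-5p 15 each. The remaining entries were miR-195b, miR-6342, miR-6353 and miR-6419, with 14, 12, 13 and 9 shared bases.

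The 6 arrays were alike in brightness and detection. The mean raw intensity was 339 to 380 and 51.1% to 53.4% of probes were detected on each array. Pairs of arrays correlated across probes with r from 0.986 to 0.990 within groups and from 0.986 to 0.989 between groups. Cre-positive replicate 3 stood apart from the other Cre-positive arrays, at -4.08 on the first principal component (27.3% of the variance) against 18.6 and 11.2, while the Cre-negative arrays lay between -11.8 and -2.29. All 12 oocyte markers were detected on 3 or more arrays. Of 18 granulosa and cumulus cell markers on the array 6 were, and 10 were detected on none. The mean log2 signal of those 18 markers was 5.06 to 5.15 in Cre-negative and 5.07 to 5.18 in Cre-positive arrays. Of 8 theca and stroma markers 1 was detected (6 on no array), and of 6 blood and immune markers 1 (4 on no array).

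Few transcripts differed between Cre-positive and Cre-negative oocytes. Of the 13563 probes 16 passed (0.118%; limma, two-sided, Benjamini-Hochberg adjusted p under 0.05), for 15 genes. Of these, 2 probes were higher in Cre-positive oocytes (0.0147% of those tested), for the metal-binding protein gene Mt1 and for Ago2. The other 14 were lower (0.103%), for 13 genes with varied functions. Over genes, 2 of 9034 had a probe that rose (0.0221%) and 13 one that fell (0.144%). Among them were the vesicle SNARE gene Vamp3, the lipid droplet coat gene Plin3, the small GTPase genes Rab11b and Rab23 and the kinesin genes Kif15 and Kif24. All log2 values here are background-corrected signal or differences of it, Cre-positive minus Cre-negative.

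The low tail was longer than the high tail. At an unadjusted p under 0.001 stood 48 probes, 8 higher and 40 lower, beside 13.6 that chance would give. Below 0.05 there were 997, of which 465 were higher and 532 lower, beside 678 from chance. Over 2-fold differences were found for 2 higher and 16 lower probes. A log2 difference of more than 0.5 was reached by 65 higher and 121 lower probes. The median over all probes was 0.00, the median SE was 0.120, and the 1st and 99th percentiles were -0.49 and 0.44. Groups of 3 did not overlap for 852 higher probes (6.28%) and 876 lower probes (6.46%), and for each of the 16 that passed. An exact permutation test of 3 against 3 cannot give a p below 0.1, so all tests below are the limma fit.

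**Figure D1:**
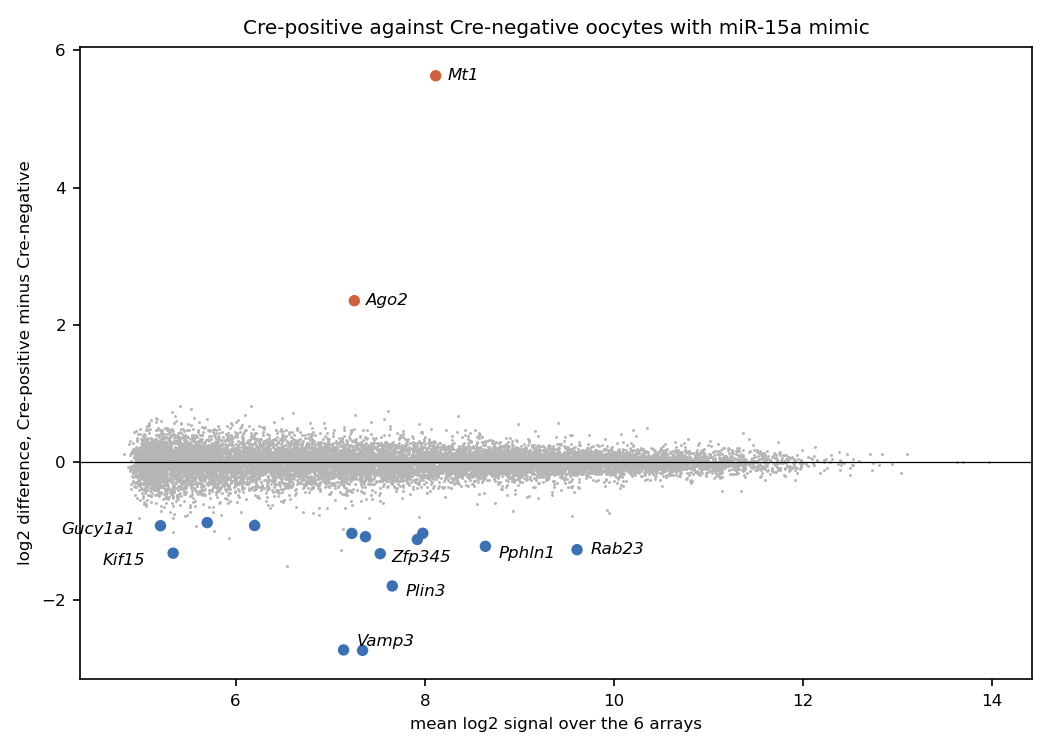
Each point is one tested probe: the horizontal axis is its mean log2 signal over the 6 arrays, the vertical axis its log2 difference, Cre-positive minus Cre-negative. Orange points mark the 2 higher and blue points the 14 lower probes that passed; Mt1 lies at 5.63, Ago2 at 2.35 and both Vamp3 probes at -2.73 and -2.74.

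Ago2, the gene whose human counterpart the transgene carries, had log2 signals of 5.91, 6.24 and 6.09 in Cre-negative and 8.43, 8.53 and 8.33 in Cre-positive arrays. All Cre-positive arrays lay above all Cre-negative arrays. The difference was 2.35 ± 0.115 SE (5.11-fold, limma adjusted p = 0.000344). It was 1.32 without background correction and 2.66 at an offset of 1, so its size depends on the correction. Ago2 has a single probe on the array, made for the mouse sequence, and its binding to the human transcript was not tested. Ago3 was bright and lay between -0.17 and 0.00 by its 4 probes (adjusted p from 0.767 to 0.995). The Ago1 probe was detected on none of the 6 arrays, and neither Ago4 probe was detected on enough arrays to be tested.

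Around Ago2, the genes that make, load and use small RNAs showed no other call. Of 15 measured genes of this machinery only Ago2 passed, and the median difference was 0.07. Dicer1, the enzyme that cuts small RNAs from double-stranded precursors, had the lowest difference. Its log2 signals were 9.54, 9.52 and 9.60 in Cre-negative and 9.33, 9.34 and 9.38 in Cre-positive arrays. The groups did not overlap, but the difference of -0.20 ± 0.0848 SE did not pass (limma adjusted p = 0.667). The GW182 genes Tnrc6a, Tnrc6b and Tnrc6c, whose proteins link Argonaute to deadenylases, stood at -0.09, -0.04 and -0.03. Drosha, which makes microRNA precursors in the nucleus, was at 0.10, and Xpo5, which exports them, at 0.09. Of 25 mRNA decay genes 0 passed, with a median of -0.02 and a range from -0.27 for the 5′ exonuclease gene Xrn1 to 0.29 for the deadenylase gene Cnot8. Transcripts known to be cut by endogenous siRNAs had 5 members measured and 0 calls (median 0.02).

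Published targets of the miR-15/16 family showed no common direction. Of 31 measured, 0 passed, 16 lay above and 15 below 0, and the median was 0.00, as over all 9034 genes, where 4580 lay above 0. The lowest was the insulin receptor gene Insr, at 5.78, 5.82 and 5.06 in Cre-negative and 4.85, 5.48 and 5.13 in Cre-positive arrays. The highest was Wee1, the kinase that restrains Cdk1, at 7.89, 7.36 and 7.98 against 8.15, 7.94 and 8.45. In both genes the groups overlapped (differences -0.40 ± 0.234 SE and 0.44 ± 0.193 SE, limma adjusted p = 0.777 and 0.688). Best-known cell-cycle and survival targets lay close to 0, with Bcl2 at -0.01, the cyclin genes Ccnd1, Ccnd2, Ccnd3 and Ccne1 at -0.12, -0.08, 0.06 and 0.06, Chek1 at -0.04 and Cdc25a at -0.07. Whether the genes that fell hold sites for the seed was not tested.

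Mt1 showed the largest difference of all tested probes. Its log2 signals were 5.67, 5.13 and 5.11 in Cre-negative and 10.96, 10.91 and 10.92 in Cre-positive arrays, among the latter almost without spread (SD 0.0243, n = 3). The Cre-negative values lay just above the floor of detection, 4.97 to 5.01. The difference was 5.63 ± 0.155 SE, 49.5-fold (44.5- to 55.1-fold within 1 SE), with a limma adjusted p of 8.15e-06. Raw intensities were 167, 152 and 156 against 2123, 2143 and 1833, before any correction. Without background correction the log2 difference was 3.73, so its size depends on the correction and its direction does not.

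The other metallothioneins did not follow Mt1. Mt2, the gene next to it, gave 5.04, 4.94 and 5.10 in Cre-negative and 5.78, 5.36 and 4.88 in Cre-positive arrays. The groups overlapped, with Cre-positive replicate 3 lowest of all, and the difference was 0.32 ± 0.207 SE (limma adjusted p = 0.797). Mt2 was detected on 2 of 3 arrays in each group and lay close to the floor of detection (4.97 to 5.07). Its difference therefore rests on background, and a small change or a fall could not be read. Mt3 stood at 0.21 and Mt4 at -0.19, neither passing, and both were dim, with group means from 5.30 to 5.82. Of the 16 measured metallothionein and zinc transport genes Mt1 alone passed, and the median was 0.04. Mtf1, the zinc-sensing factor that switches metallothionein genes on, was at 0.00, and the zinc exporter gene Slc30a1, another of its targets, at -0.03. The position of the Mt1 probe in its transcript was not used here, and RNA of the native gene cannot be told apart from any RNA of the Cre or AGO2 constructs that the probe may read, since the same oocytes carry both.

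The start regions of the neighbours Mt1 and Mt2 are shown because the values of their probes differed so much, whatever RNA the Mt1 probe read. RefSeq (GRCm38.p6) places their starts 6471 bases apart, and each window of 300 bases runs from upstream to just past the start. Capitals mark matches of TGCNCNC, the core of the metal response element, searched on both strands (GNGNGCA on the other), as the only motif.
Mt1, chr8:94178839-94179138, plus strand: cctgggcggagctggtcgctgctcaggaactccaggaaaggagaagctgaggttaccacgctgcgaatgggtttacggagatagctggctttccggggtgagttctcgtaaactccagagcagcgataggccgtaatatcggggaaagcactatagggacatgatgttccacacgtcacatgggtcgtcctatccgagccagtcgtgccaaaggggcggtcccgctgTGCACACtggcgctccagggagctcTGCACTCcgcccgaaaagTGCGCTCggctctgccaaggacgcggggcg
Mt2, chr8:94172368-94172667, plus strand: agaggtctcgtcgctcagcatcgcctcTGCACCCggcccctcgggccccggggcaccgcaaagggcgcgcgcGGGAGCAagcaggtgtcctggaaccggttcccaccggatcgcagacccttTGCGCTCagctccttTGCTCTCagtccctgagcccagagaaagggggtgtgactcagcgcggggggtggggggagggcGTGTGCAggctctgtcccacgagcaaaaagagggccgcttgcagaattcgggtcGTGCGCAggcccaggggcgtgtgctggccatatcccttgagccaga
The Mt1 window held 3 matches, and 7.1% of 32851 such windows have at least as many. The Mt2 window held 6, and 0.225% have at least as many. At least 1 match was found in 51.0% of windows. A match describes the letters only.

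Vamp3 fell furthest of the lower genes. It encodes a vesicle SNARE that helps recycling endosomes fuse with the plasma membrane. One probe gave 8.63, 8.43 and 8.45 in Cre-negative and 5.66, 5.41 and 6.26 in Cre-positive arrays. The other gave 9.07, 8.60 and 8.46 against 5.57, 5.90 and 6.46. The groups stood more than 2 log2 units apart at their nearest arrays by either probe, and Cre-positive replicate 3 was the least lowered by both. The differences were -2.73 ± 0.205 SE and -2.74 ± 0.243 SE, falls of 6.64- and 6.66-fold (limma adjusted p = 0.00576 and 0.00874). Their size depends on the correction, at -1.48 and -1.57 without background correction and -3.15 and -3.10 at an offset of 1, where the probe with -3.10 lost its call.

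No other SNARE gene passed. Among 36 measured SNAREs and partners the median was -0.01, and after Vamp3 the lowest were Napg, an adaptor that helps take SNARE complexes apart, at -0.32 and Stx7, a syntaxin of late endosomes, at -0.28. Vamp4 stood at 0.05, Vamp7 at -0.10 and 0.05 by its probes, and Vamp8 at 0.02 and 0.21. Vamp2 and Vamp5 were detected on none of the 6 arrays. Vamp1 had 4 tested probes, and by one it was detected on every Cre-positive and no Cre-negative array. That probe was at least 1.29-fold higher, against the floor of detection, without passing (adjusted p = 0.258). The other Vamp1 probes stood at 0.43, 0.18 and -0.07.

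Among Rab GTPases, switches of vesicle traffic, 2 of 37 fell and none rose, beside 0.144% of all genes that fell, and the median was -0.06. These 2 are few, and the list was not tested. Rab11b, which acts on recycling endosomes, gave 8.40, 8.52 and 8.53 in Cre-negative and 7.41, 7.27 and 7.41 in Cre-positive arrays. These groups were tight and lay about 1 log2 unit apart (difference -1.12 ± 0.0934 SE, 2.18-fold lower, limma adjusted p = 0.00625). Rab23, a brake on Hedgehog signalling in the mouse embryo, was the brightest of the genes that fell. It gave 10.28, 10.26 and 10.19 against 8.78, 8.82 and 9.33, with Cre-positive replicate 3 again the least lowered (difference -1.27 ± 0.154 SE, 2.41-fold, adjusted p = 0.0402). Rab11a, the close relative of Rab11b, was at -0.19 and did not pass, nor did Rab25 of the same subfamily at -0.23. Of 14 Rab11 effector, EHD and exocyst genes 0 passed (median 0.07), the lowest being the exocyst subunit gene Exoc2 at -0.46 (adjusted p = 0.512).

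Plin3, whose protein coats nascent lipid droplets, gave 8.53, 8.52 and 8.62 in Cre-negative and 6.47, 6.76 and 7.04 in Cre-positive arrays. The groups did not overlap, and the difference of -1.80 ± 0.145 SE was a 3.48-fold fall (limma adjusted p = 0.00625), and -1.13 without background correction. Plin2, the other droplet coat gene tested, was at -0.27 (adjusted p = 0.773), and Plin1, Plin4 and Plin5 were not detected on enough arrays to be tested. Of 13 measured lipid droplet genes Plin3 alone passed, 8 lay below 0 and the median was -0.10. Fitm2, needed for droplet budding from the endoplasmic reticulum, was at -0.39, and the triglyceride lipase gene Pnpla2 at 0.13, neither passing.

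Of 19 kinesin genes 2 had a probe that fell, beside 0.144% of all genes, and the median was 0.01. The list was not tested. Kif24, which restrains the growth of cilia from centrioles, gave 8.50, 8.59 and 8.39 in Cre-negative and 7.48, 7.37 and 7.54 in Cre-positive arrays (difference -1.03 ± 0.0989 SE, 2.04-fold lower, limma adjusted p = 0.0106). Kif15, a spindle motor, gave 6.03, 5.88 and 6.09 in Cre-negative arrays by the probe that passed. In the Cre-positive arrays that probe was below detection throughout, so the fall was at least 1.95-fold (adjusted p = 0.00927). At an offset of 1 the call was lost. A second Kif15 probe stood at -0.72 ± 0.135 SE without passing (adjusted p = 0.258), and one more was detected on no array. Kif11 and Kif4, other mitotic motors, were at -0.20 and -0.02.

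Gucy1a1 encodes the alpha subunit of the nitric oxide receptor that makes cyclic GMP, the messenger that holds oocytes in arrest. One probe gave 5.62, 5.60 and 5.79 in Cre-negative arrays and was below detection in the Cre-positive ones, a fall of at least 1.55-fold (measured means 5.67 and 4.74, limma adjusted p = 0.0199). A second tested probe stood at -0.11 ± 0.175 SE with overlapping groups, and without background correction the first stood at -0.27 and lost its call. No other of the 20 measured genes of cyclic GMP and cyclic AMP control passed. The phosphodiesterase gene Pde3a, whose product milrinone blocks, was at -0.05, the receptor genes Gpr3 and Npr2 at -0.07 and 0.15, and the list's median at -0.04.

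Pphln1 encodes periphilin, a member of the HUSH silencing complex. The probe that passed gave 9.16, 9.27 and 9.33 in Cre-negative and 7.88, 7.84 and 8.37 in Cre-positive arrays (difference -1.22 ± 0.151 SE, 2.33-fold lower, limma adjusted p = 0.0434). Other tested Pphln1 probes stood at -1.27 ± 0.193 SE, -1.02 ± 0.230 SE and, for the brightest, -0.30 ± 0.0937 SE, none passing. All 4 thus lay below 0, but their sizes differed by 0.97.

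Zfp345, a zinc finger gene, gave 8.24, 8.13 and 8.21 in Cre-negative and 6.82, 6.59 and 7.19 in Cre-positive arrays. It was 2.51-fold lower (difference -1.33 ± 0.152 SE, limma adjusted p = 0.0287), the only one of 175 measured Zfp genes to pass, beside a median of 0.01. The remaining calls were 6030458C11Rik (2.12-fold lower, adjusted p = 0.00625), Tstd2, which encodes a protein with a sulfurtransferase-like domain (2.05-fold, 0.0471), Dtna (1.89-fold, 0.0199) and Mab21l3 (1.84-fold, 0.0106). Dtna encodes alpha-dystrobrevin, a partner of dystrophin, and 3 other Dtna probes were detected on none of the 6 arrays with mimic. Without background correction Mab21l3 stood at -0.27 and lost its call, and the calls of Zfp345, Tstd2, Pphln1 and Rab23 were lost at an offset of 1 and without the detection filter. Of 10 measured dystrophin complex genes Dtna alone passed (median 0.03), with the syntrophin gene Sntg2 at 0.57 (adjusted p = 0.371).

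**Figure D2:**
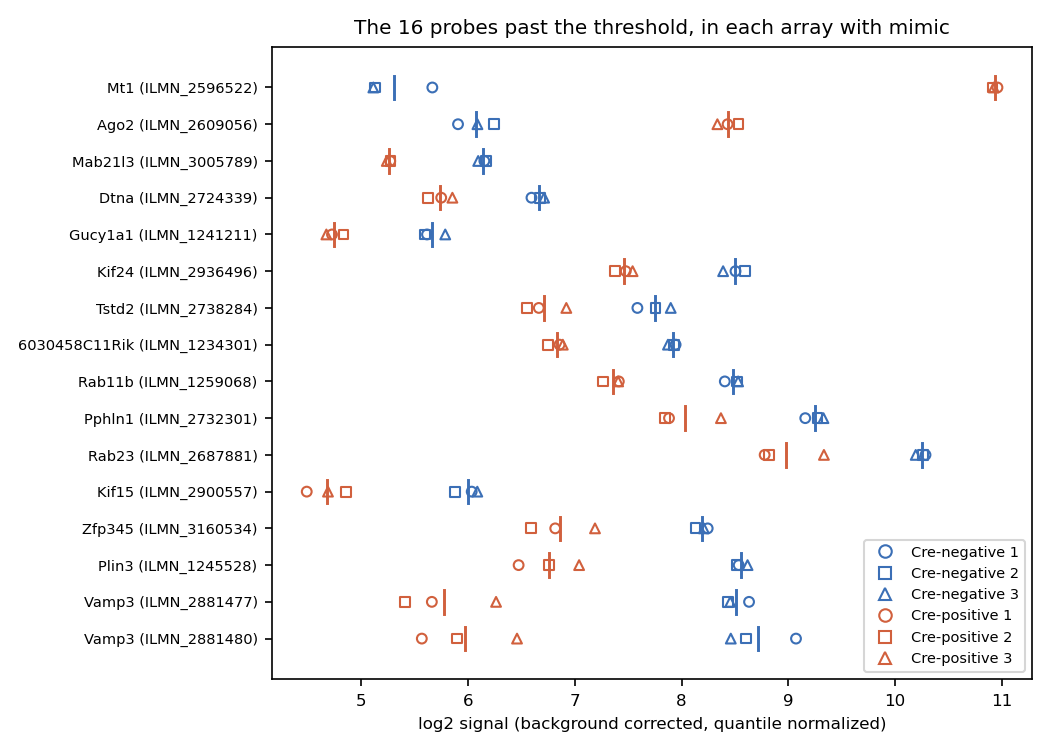
Log2 signal of the 16 probes that passed, one row per probe; blue symbols are Cre-negative and orange symbols Cre-positive arrays, the symbol shape gives the replicate, and vertical ticks are group means of 3. No row has overlapping groups, and in 10 of the 14 lower probes the triangle of Cre-positive replicate 3 is the highest of the Cre-positive symbols.

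The size of the falls differed between Cre-positive arrays. Replicate 3 was the highest of the 3 in 10 of the 14 lower probes, replicate 2 in 3 and replicate 1 in 1. Measured from the Cre-negative mean, the median fall over these 14 probes was -1.23 in replicate 1, -1.21 in replicate 2 and -0.999 in replicate 3, while over all probes each replicate had a median of 0.00 or 0.01. Without replicate 3 the number of calls was 17, of which 15 were among the 16. The number was 2 without Cre-negative replicate 1, when Mt1 and Ago2 alone passed, and 8 without Cre-negative replicate 2 or 3 or Cre-positive replicate 1 or 2. Every one of the 16 kept its direction in these fits, with log2 differences of -2.99 to -2.53 for both Vamp3 probes, -1.95 to -1.65 for Plin3, 2.27 to 2.44 for Ago2 and 5.54 to 5.80 for Mt1.

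Just short of the threshold stood genes in both directions. Tfec, a transcription factor gene of the Mitf family, was the nearest of the higher ones, at 5.72, 5.90 and 5.62 in Cre-negative and 6.71, 6.51 and 6.50 in Cre-positive arrays. Its groups did not overlap (difference 0.82 ± 0.112 SE, limma adjusted p = 0.0690), and no other of the 16 measured MiT and lysosome genes came near (median -0.02). The next higher genes were Vamp1, Miip, the semaphorin receptor gene Plxna1, Rtn4, Fcrl1, Dennd3, a regulator of a Rab GTPase, and the kinase gene Tesk1, with differences from 0.45 to 0.68 and adjusted p of at least 0.258. Of these, Rtn4 and Fcrl1 were detected on no Cre-negative array, as was Vamp1 by the probe concerned, so their sizes rest on background. Other Rtn4 probes, brighter and detected on all 6 arrays, stood at 0.07 and 0.07 (adjusted p = 0.922 and 0.942).

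The nearest of the lower ones was Fadd, the adaptor of death receptors, at 6.13, 5.95 and 6.05 against 5.23, 4.89 and 5.25 (difference -0.92 ± 0.123 SE, limma adjusted p = 0.0671). Its brighter probes stood at -0.03 and -0.08, and a dim one at -0.61. Trp53rkb, which encodes the kinase of the KEOPS complex and has a close copy, Trp53rka, was at 6.40, 6.65 and 6.40 against 5.06, 5.50 and 5.56 (-1.10 ± 0.152 SE, adjusted p = 0.0712). Exosc4, a subunit of the RNA exosome, followed at -0.98, then Cd69 at -0.73, Ccdc127 at -1.52, Tspan31 at -0.80, Nucks1 at -0.78 and Deptor, an inhibitor of mTOR, at -0.70, with adjusted p from 0.0883 to 0.141. By the probe with the smallest p of each gene the groups did not overlap, as for 6.46% of all tested probes in this direction. These probes were picked for their p, so this adds no support. By the brighter Fadd probes and another Ccdc127 probe the groups overlapped.

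Genes with several probes allowed a comparison within the gene, though probes of a gene share the arrays. Of 2487 genes with 2 or more tested probes, 1267 had all probes on the same side of 0. Of the 14 whose lead probe (smallest p) fell with an unadjusted p under 0.001, 13 did, and of the 1 with a higher lead probe, Vamp1, 0 did. The second probes of Tspan31, Nucks1, Deptor and Fbxo30 stood at -0.62, -0.52, -0.31 and -0.47. Ccdc127 was the exception, with -1.52, -1.02 and 0.08. The lead probe was picked for its p, so its size is a description.

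**Figure D3:**
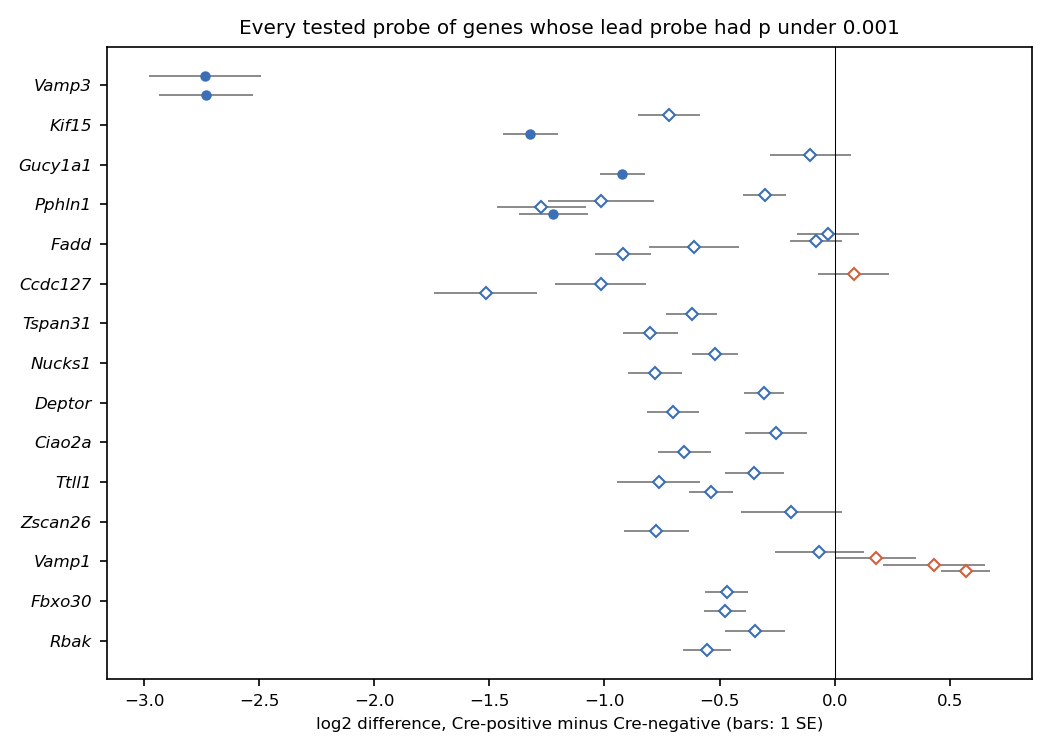
Every tested probe of the 15 genes that have at least 2 tested probes and a lead probe with an unadjusted p under 0.001; the horizontal axis is the log2 difference, Cre-positive minus Cre-negative, with bars of 1 SE. Filled circles passed and open diamonds did not; blue outlines lie below 0 and orange ones above. The Vamp3 probes coincide at -2.73 and -2.74, while those of Ccdc127 run from -1.52 to 0.08.

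Some probes were detected in a single group. Of all 25697 probes, 28 were detected on every Cre-positive and no Cre-negative array (0.109%) and 49 the other way (0.191%). Among named genes the largest differences in the first set belonged to Tm4sf20 (at least 1.41-fold higher), Tmem160 (1.34), Trim80 (1.37), Vamp1 (1.29) and Shisa4 (1.29). In the second set they belonged to Kif15 and Gucy1a1, given above, and to Ttyh2 (at least 1.27-fold lower), Efcab2 (1.41) and Lrrc6 (1.25). All these folds set the measured group against the floor of detection of the other. No test was made of the counts.

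The falls were set beside those of the oocytes without mimic, which share no array with the 6 described here. Of the 14 lower probes 12 were tested there too, and 12 of these 12 were also lower without mimic, as were 50.9% of the 12484 probes tested in both sets. For 9 of the 12 the groups without mimic (4 against 4) did not overlap, as for 1.71% of those probes. Differences without mimic were -1.19 and -1.23 for Vamp3, -1.01 for Plin3, -0.73 for Rab23, -0.57 for Tstd2, -0.55 for Rab11b, -0.49 for 6030458C11Rik, -0.46 for Pphln1, -0.40 for Zfp345 and -0.36 for Kif24. They were smaller for Kif15 (-0.18) and Dtna (-0.11). In the other direction Ago2 stood at 1.97. Mt1 was higher too, but was detected on 1 of the 4 Cre-negative arrays without mimic, so its 5.01 rests on background and its size is not read here. The tables were normalized separately, and the presence of mimic coincides with the table, so mimic and table cannot be told apart.

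**Figure D4:**
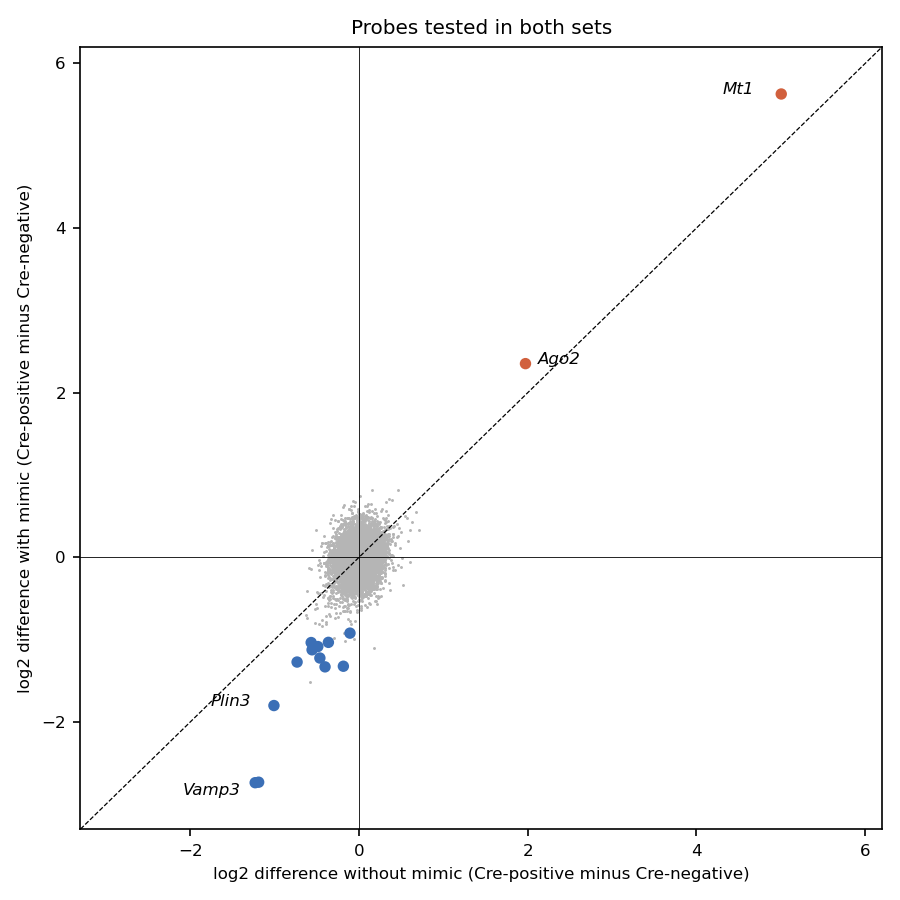
Log2 difference, Cre-positive minus Cre-negative, without mimic (horizontal, 4 against 4 arrays) and with mimic (vertical, 3 against 3) for the probes tested in both sets; the dashed line marks equal differences. Coloured points passed with mimic. The 12 lower ones all lie below the dashed line and left of 0; Vamp3 falls at -1.19 and -1.23 without and at -2.73 and -2.74 with mimic.

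Whether these differences themselves differed between the sets was tested as a contrast over all 14 arrays. Of 12484 probes 0 passed (0%), the lowest adjusted p from limma being 0.0662. Unadjusted, 583 probes fell under 0.05, fewer than the 624 that chance would give. Each of the 12 lower probes was nevertheless more negative with mimic, by between 0.47 and 1.54. For Vamp3 the contrast was -1.54 ± 0.264 SE and -1.51 ± 0.275 SE (limma adjusted p = 0.104 and 0.111), and for Plin3 -0.79 ± 0.250 SE (0.864). These probes had been picked for their values with mimic, a choice that favours larger values there. How much the choice adds was not tested. In Cre-negative arrays all 12 were also dimmer without mimic, the Vamp3 probes at 6.88 and 6.73 against 8.51 and 8.71 with it. Probes without a call could be dimmer there too, such as Vamp4 (8.39 against 10.50) and Dicer1 (7.47 against 9.55), while Npm2 was brighter (6.95 against 6.25). The share over all probes was not counted, so dimness is not read as a trait of the 12. The offset makes differences of dim probes smaller, and how much this adds was not tested. Ago2, which was higher with Cre, also stood further from 0 with mimic, by 0.38 ± 0.164 SE.

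The probe closest to the threshold in the contrast was that of Trp53rkb, at 0.17 without and -1.10 with mimic (contrast -1.28 ± 0.199 SE, limma adjusted p = 0.0662). After Vamp3 came Zfp345 at -0.93 ± 0.174 SE, the carboxypeptidase gene Cpb1 at -0.94 ± 0.193 SE and Ercc6l2, a relative of a repair helicase, at -0.67 ± 0.150 SE. A second Ercc6l2 probe stood at -0.28 with mimic, close to the -0.31 of the first. On the positive side stood Cln6 at 0.83, Plxna1 at 0.72, Il20ra at 0.60, Snai1 at 0.80 and Ido2 at 0.74, each dim and, apart from Ido2, below detection on 1 or more Cre-negative arrays with mimic. None passed. The contrast had 0 calls in the main setting and up to 6 when an array was left out, the 6 without Cre-positive replicate 3 of the mimic set and 1 without Cre-negative replicate 4 of the set without mimic.

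Other functions of the oocyte held no gene that passed. Of 33 measured oocyte and maternal-effect genes 23 lay above 0 (median 0.03), with the histone chaperone gene Npm2 at 0.71 and the growth factor gene Gdf9 at 0.43, neither passing (limma adjusted p = 0.604 and 0.664). Of 28 meiotic spindle and checkpoint genes the extremes were Cenpe, a kinetochore motor, at 0.48 and Espl1, the separase that opens cohesin rings, at -0.24, and the median was 0.02. Ribosomal protein genes lay above 0 in 45 of 55 (median 0.07, highest Rpl5 at 0.56) and respiratory chain genes in 67 of 85 (median 0.04, highest Ndufb10 at 0.39). Of all 9034 genes 4580 lay above 0. Over 8 other fits these medians ran from 0.02 to 0.13 and from 0.03 to 0.07. Genes of a list share the same 6 arrays, and the counts were not tested. Of 16 p53 and DNA damage genes 12 lay below 0 (median -0.07), while Cdkn1a, the cyclin-dependent kinase inhibitor induced by p53, was at 0.54. Medians were -0.04 for 19 stress genes, -0.02 for 12 interferon genes, -0.03 for 8 genes of embryonic genome activation and -0.04 for 6 KEOPS genes.

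**Figure D5:**
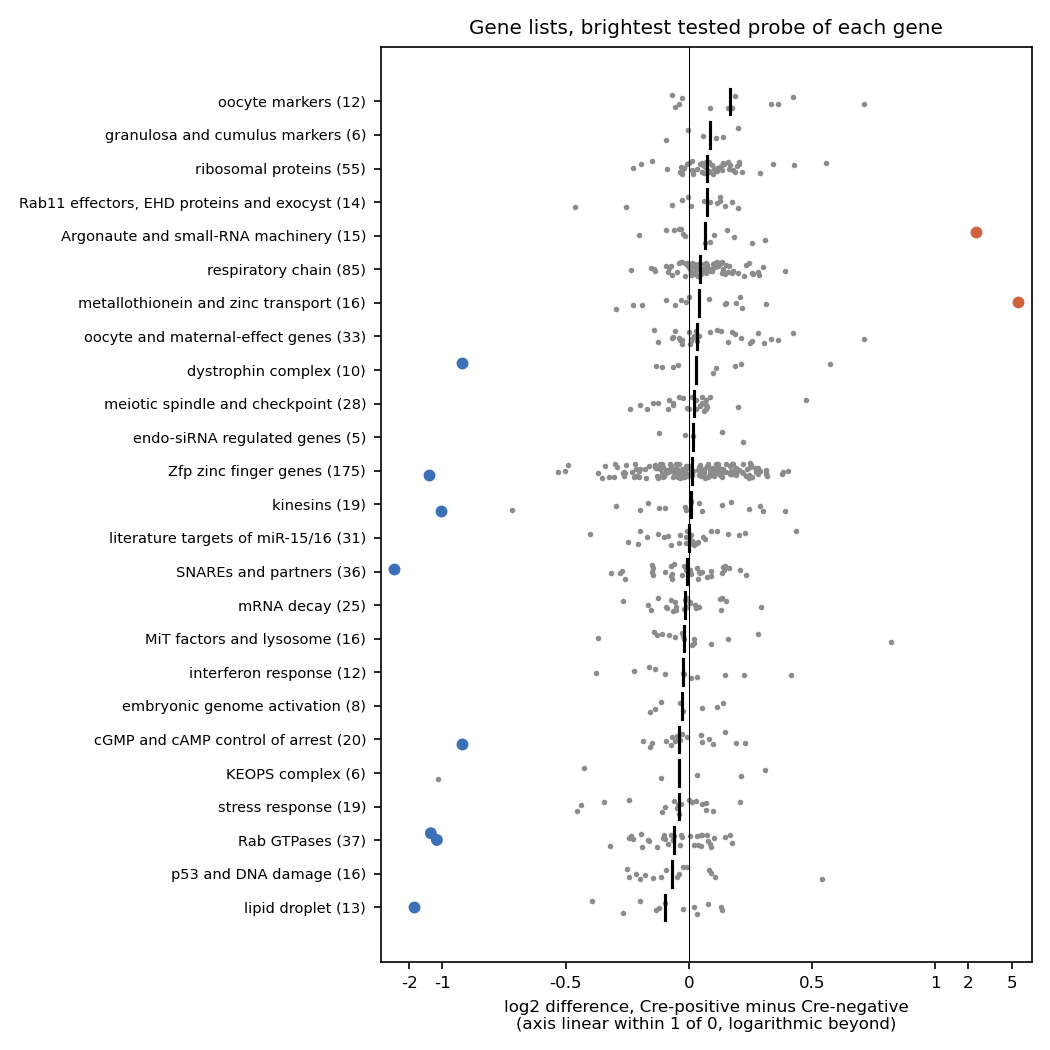
Log2 differences, Cre-positive minus Cre-negative, of the measured genes of each list, by the brightest tested probe of each gene (number of genes in brackets); black ticks are medians, coloured points passed by that probe, and the axis is linear within 1 of 0 and logarithmic beyond. Medians lie between -0.10 for lipid droplet genes and 0.17 for oocyte markers, and single genes such as Mt1, Ago2, Vamp3 and Plin3 stand apart from their lists.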

How the data were processed

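Amplified, biotin-labelled total RNA was hybridised to 14 Illumina arrays, per the labels' protocols. Per the file headers, the authors deposited, per probe and array, a raw intensity and a detection p-value. The deposited normalized tables hold log2 signal. Quantile normalization of uncorrected log2 intensities, set by set, gave the same values to within 4.97e-14 (median 7.24 with mimic), and the series value table equals them to within 5e-09. The scanner is not given in the sources used here.

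Background was removed from the raw intensity with the nec function (limma 3.58.1, R 4.3.3; negative controls inferred from detection p, offset 16). After log2 transformation each set was quantile normalized on its own. The offset makes fold changes of dim probes smaller. Probes detected (p under 0.05) on 3 of 6 arrays with mimic were tested with lmFit and eBayes, and those also detected on 4 of 8 without mimic entered the contrast of Cre effects over 4 groups. Symbols came from the platform annotation. Of 25697 probes 23978 had 1 symbol and 1719 none or several, 23962 matched RefSeq by gene identifier, and 0 symbols changed. The files name no build, so genes have no coordinates. Lists use the brightest tested probe for values and any tested probe for calls.

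The members, lists and alternatives were chosen with earlier results of these data known. Named genes were all that passed, the 8 with the next smallest p in each direction, list extremes, the families of Ago2, Mt1, Vamp3 and Plin3, the 5 largest detection differences in each direction and the 5 smallest p of the contrast in each direction. Further list members were added for their known role. The fits were tested on simulated data. The number of arrays limits the precision. Alternatives were another or no background correction, scaling, filter, eBayes setting, array weights, a replicate block, a shared spread and leaving out each array. Figures used Python 3.11.15 and matplotlib 3.10.9.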

Additional observations from a re-analysis of the deposited data

Results flagged for a closer look

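One value lay far from the others of its group. In the set without mimic, the Kif15 probe that passed with mimic stood at a log2 signal of 5.57 in Cre-negative replicate 4, against 4.66 to 4.79 in the other 3 Cre-negative arrays. It exceeded Dixon's 95% critical value for 4 samples. Of the 32 groups of 4 examined, 1 was beyond that value, and chance gives about 1 in 20. Without this array Kif15 passed in the contrast of the Cre effects.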

How the results depend on the processing

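The 16 calls became 30 without background correction and with either deposited table, 10 at an offset of 1, 26 with median scaling, 38 with eBayes trend and robust settings, and 52 with a spread shared by all groups. They were 12 without the detection filter, 15 with detection on all arrays, 13 with 1 probe per gene and 16 with array weights. Leaving out an array gave 2 to 17. With the replicate number as a block 4 passed, namely Mt1, Ago2, Plin3 and 1 Vamp3 probe. Whether the replicate numbers pair the samples is not known. Deviations of same-numbered arrays correlated weakly but positively, at 0.0422, 0.0737 and 0.194. The second principal component fell in order of replicate number in both groups. These values do not decide whether samples were paired, and the cause of the lower number of calls was not tested. The 0 calls of the contrast became 4 without background correction, with the deposited table or with array weights, 3 with median scaling, 2 with trend and robust settings, 1 without the filter and 0 to 6 with an array left out. With the replicate block, at an offset of 1, with detection on all arrays, with 1 probe per gene or with both sets normalized together they stayed 0. Mt1 and Ago2 passed in every fit of the Cre effect, and all 16 probes kept their direction. Gucy1a1 was lost in each of the 6 fits that left out an array, and without background correction it stood at -0.27. Mab21l3, Tstd2, Dtna, Zfp345, Pphln1 and Rab23 were lost in 5 of these 6 fits and Kif24 in 4. Kif15 and 1 Vamp3 probe were lost in 2, and the remaining lower probes in 1. Of 1878 recomputed differences of single probes 1720 kept direction and side of the threshold, 76 lost the call, 66 gained one and 16 changed sign. The changes of sign were all for probes near 0, not for every probe of their genes. With an array left out these ranged from -0.259 to 0.0342 for Sohlh1, -0.196 to 0.0781 for Inhba, -0.0549 to 0.0289 for one Ago3 probe, -0.245 to 0.0952 and -0.0344 to 0.0997 for the Vamp7 probes, -0.0255 to 0.295 and -0.242 to 0.0650 for 2 Vamp1 probes and -0.0858 to 0.0842 for one Vamp8 probe, which stood at -0.00373 with array weights. Medians of several lists near 0 also changed sign. Dim probes near the floor of detection, such as Kif15, Gucy1a1 and Mt1 in Cre-negative oocytes, are limited by signal over background.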
